A study of Mus musculus with 30 samples.

Results

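Preputial glands of male mice that lacked both Cyp1a1 and Cyp1b1 (Cyp1a1/1b1 double knockout, DKO) were compared with those of wild type (WT) mice at week 0, before any benzo[a]pyrene (BaP) was fed. BaP is a carcinogenic polycyclic hydrocarbon formed in combustion. The comparison takes the 2 DKO arrays and the 2 WT arrays that the sample titles place at week 0, which are 4 of the 30 arrays in the series. Per the protocol, glands of 2 mice were used in each group, and the labels number the arrays of a group as replicates 1 and 2. The DKO mice, the Cyp1a1 single knockout (KO) mice and the WT mice were males on the B6 background, about 6 weeks old when the diet of the later groups began. The labels name oral BaP as the treatment of all groups, with a duration of 0 weeks for those compared here. The other groups received about 12.5 mg/kg/day for 4, 8, 12 or 16 weeks. The 2 Cyp1a1 KO arrays of week 0 serve as a further set, since DKO and KO mice share the loss of Cyp1a1. How either allele was targeted is not known here. The tissue label is preputial gland duct, while the protocol describes whole glands dissected free of surrounding tissue, so that each array mixes all cell types of the gland. In such bulk samples fewer cells of a type and less RNA per cell cannot be told apart.

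CYP1A1 and CYP1B1 are cytochrome P450 enzymes that oxidise polycyclic hydrocarbons, steroids and retinoids. Their genes are classical targets of the aryl hydrocarbon receptor (AhR), a ligand-activated transcription factor that pairs with ARNT and binds a short DNA element. BaP is both a ligand of AhR and a substrate of both enzymes. The preputial gland is a modified sebaceous gland of rodents. Its sebocytes make lipids, wax esters among them, and burst to release these with scent compounds into a duct lined by keratinocytes.

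Signal is given throughout as log2 intensity, and a difference is DKO minus WT on that log2 scale unless other groups are named. Of the sebocyte markers, Scd1 and Awat2 had high signal on all 6 week 0 arrays. Scd1, the sebocyte fatty acid desaturase, lay at 12.45 and 12.60 in DKO, 12.37 and 12.55 in Cyp1a1 KO and 12.58 and 12.43 in WT. Awat2, a wax ester synthase, lay at 10.68 and 9.55 in DKO, 11.13 and 10.91 in KO and 11.08 and 11.29 in WT. Not every sebocyte marker was high. Elovl3, a fatty acid elongase, lay at 5.60 and 4.80 in DKO, 5.45 and 5.74 in KO and 6.89 and 8.02 in WT. The defining muscle gene Myh4 did not exceed 5.14 on any of these arrays, the B cell gene Cd79a 4.68, and the seminal vesicle gene Svs4 4.94.

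DKO replicate 2 stood apart from the other 3 arrays. All its log2 values had a standard deviation of 1.25, against 1.83 in DKO replicate 1, 1.78 and 1.86 in KO and 1.98 and 2.08 in WT. Across 18784 genes it correlated at 0.796 with DKO replicate 1 and at 0.753 to 0.798 with the other 5 arrays of week 0, while DKO replicate 1 correlated at 0.952 to 0.977 with the KO and WT arrays. Genes are not independent replicates, and these values describe the arrays only. In the label descriptions DKO replicate 2 carries number 31, DKO replicate 1 number 20, the KO arrays numbers 12 and 13, and the WT arrays numbers 1 and 2. What the numbers stand for is not given. Of the 10 arrays numbered 22 to 33, 9 had a standard deviation under 1.5, and none of the 20 arrays numbered 1 to 20 did. Of the 9 narrow arrays, 8 were DKO arrays.

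The narrow range of DKO replicate 2 moved with signal level. Genes were put into 5 classes of equal size by their mean in the WT arrays of weeks 4 to 16, which the week 0 comparison does not use. In DKO replicate 2 the median difference from the WT week 0 mean was 1.44 in the lowest class, 0.23 in the middle class and -1.55 in the highest class. In DKO replicate 1 these medians were 0.30, 0.16 and -0.23. The Cyp1a1 KO arrays had 0.53 and 0.22 in the lowest class and -0.31 and -0.17 in the highest class. Genes with high signal thus tended to lie lower, and genes with low signal higher, on DKO replicate 2 than in WT, and a smaller tilt in the same direction was present on the other 3 knockout arrays. Findings below were therefore checked with DKO replicate 1 alone and after quantile normalization, which gives all arrays the same distribution of values. The checks are given by gene for the genes described first. For the gene lists, calls in the checks are given together, and medians in the checks for a part of the lists. With DKO replicate 1 alone, the single array is assumed to vary like the other groups.

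**Figure D1:**
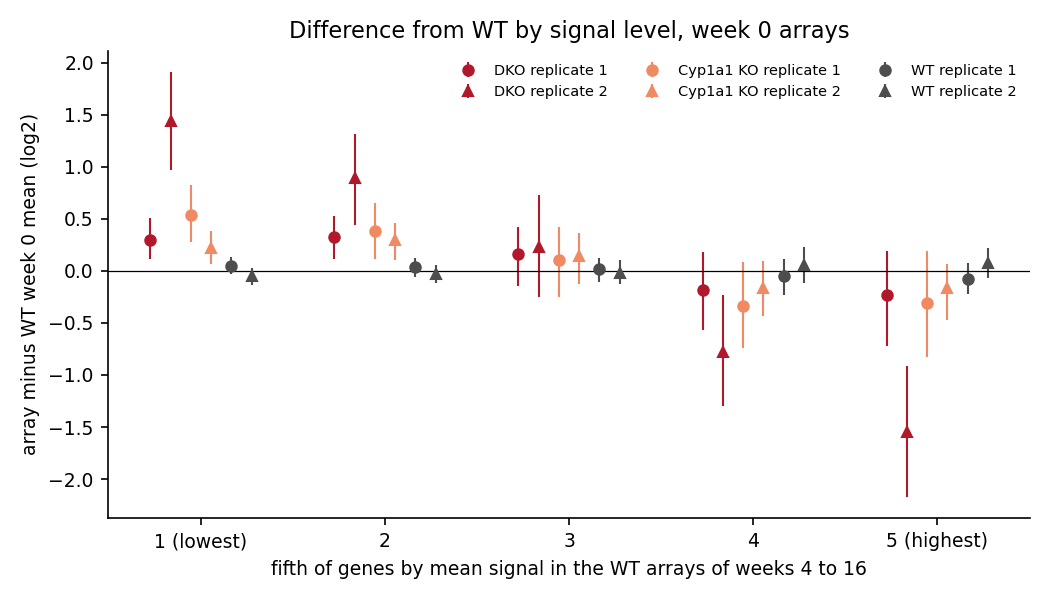
Median difference of each week 0 array from the WT week 0 mean (y axis, log2; bars span the first to the third quartile of genes) in 5 classes of genes ordered by signal in later WT arrays (x axis). DKO replicate 2 runs between 1.44 in the lowest class and -1.55 in the highest, DKO replicate 1 between 0.33 and -0.23, and the WT replicates lie within 0.08 of 0.

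Cyp1b1, itself a target of the knockout, had more signal in DKO glands than in WT. Its signal was 8.74 and 7.48 in DKO, 6.66 and 6.69 in Cyp1a1 KO and 6.52 and 6.20 in WT. Both DKO arrays lay above all 4 others. The difference from WT was 1.75 ± 0.39 (standard error of the model, 2 arrays each), 3.37-fold, and passed limma's test over all genes (adjusted p = 0.0172). With DKO replicate 1 alone it was 2.38 (limma adjusted p = 0.0493) and after quantile normalization 2.29 (limma adjusted p = 0.000614). Quantile normalization brought the 2 DKO arrays to 8.44 and 8.47. Without either WT array the difference remained at 1.91 and 1.59 but did not pass (adjusted p = 0.0512 without WT replicate 1 and 0.311 without WT replicate 2). Whether the probe set reads exons that the targeting left in place is not known here. The signal therefore does not check the genotype, and it is no measure of enzyme.

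Cyp1a1, the gene absent from both knockouts, had low signal on all 6 arrays. It was 3.96 and 5.33 in DKO, 3.83 and 3.67 in Cyp1a1 KO and 4.35 and 4.74 in WT. The DKO arrays lay on either side of WT, and the difference of 0.10 ± 0.54 did not pass (limma adjusted p = 0.895). It was -0.58 with DKO replicate 1 alone. Cyp1a2, the liver-enriched sister gene of Cyp1a1, read 3.20 and 3.46 in DKO, 3.57 and 3.50 in KO and 3.0 and 3.23 in WT. Its difference of 0.21 ± 0.36 did not pass either (limma adjusted p = 0.674), and it became -0.49 after quantile normalization. As for Cyp1b1, the position of these probe sets relative to any deletion is not known.

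The 250 bases before the start of the targeted genes are shown because AhR acts on such sequences. They were taken from RefSeq on GRCm38.p6, at chr17:79715062-79715311 on the minus strand for Cyp1b1 and at chr9:57697363-57697612 on the plus strand for Cyp1a1. Capitals mark GCGTG, the core letters of the AhR element, or its reverse complement CACGC.
Cyp1b1: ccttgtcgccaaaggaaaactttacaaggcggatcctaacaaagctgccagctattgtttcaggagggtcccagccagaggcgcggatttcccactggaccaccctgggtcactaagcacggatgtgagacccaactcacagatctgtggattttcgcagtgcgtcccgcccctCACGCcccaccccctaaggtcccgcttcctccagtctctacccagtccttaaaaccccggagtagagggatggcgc
Cyp1a1: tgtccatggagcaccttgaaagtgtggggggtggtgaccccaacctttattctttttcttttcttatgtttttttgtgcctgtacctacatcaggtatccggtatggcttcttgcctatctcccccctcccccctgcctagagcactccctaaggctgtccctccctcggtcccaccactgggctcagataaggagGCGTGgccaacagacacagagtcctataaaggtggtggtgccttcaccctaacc
Each window held 1 match, counting both strands, and at least 1 match was present in 28.2% of 32851 promoter windows of the same length. A match describes the letters only. The arrays measure transcripts and give no binding at these sequences.

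**Figure D2:**
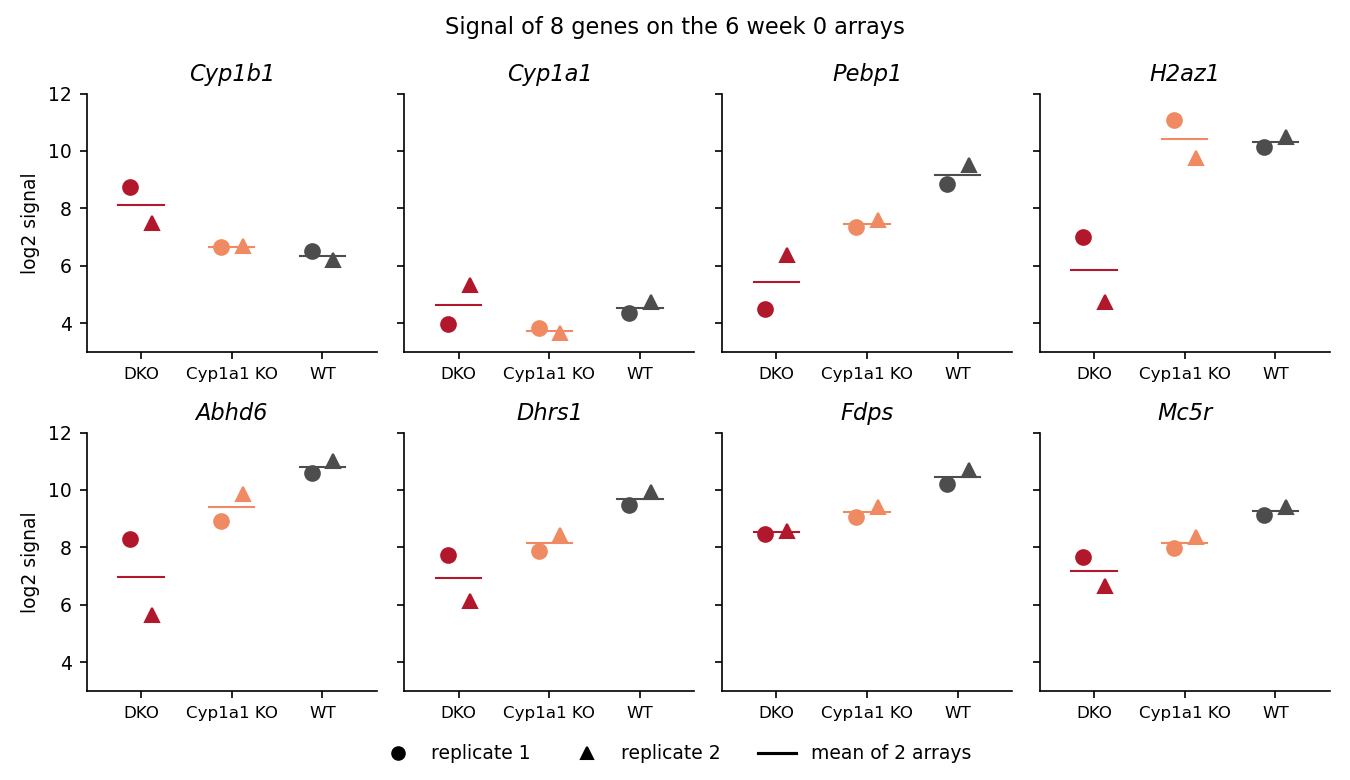
Log2 signal (y axis) of 8 genes on the 6 week 0 arrays by genotype (x axis); points are single arrays and lines are means of 2. Cyp1b1 lies at 8.74 and 7.48 in DKO, against 6.52 and 6.20 in WT, and the 6 genes other than Cyp1a1 and Cyp1b1 lie below both WT arrays on both DKO arrays.

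Across all genes, 732 of 18784 were called between DKO and WT (3.9%; limma, Benjamini-Hochberg adjusted p under 0.05). Of these, 131 were higher in DKO (0.697% of all genes) and 601 were lower (3.2%). The median difference over all genes was 0.19. All 732 had the same sign on DKO replicate 1 alone and after quantile normalization. These values come from the arrays that gave the calls, so the sign agreement was largely fixed by that choice and is no separate support. On DKO replicate 2, 671 lay further from WT than on DKO replicate 1. Called genes that were lower had a median difference of -1.32 on DKO replicate 1 and -2.20 on DKO replicate 2. Called genes that were higher had 0.86 and 1.90. All 601 lower genes had a WT mean above 5.34, the median of all genes on the 4 arrays, and 123 of the 131 higher genes had one below it. The calls thus lay in the direction of the tilt with signal level.

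The count depended on single arrays and on the scaling. With DKO replicate 1 alone 5 genes were called (0.0266%), 4 of them among the 732, and with DKO replicate 2 alone 7444 (39.6%). Without WT replicate 1 the count was 268, and without WT replicate 2 it was 0, with 2549 genes at an unadjusted p under 0.05. Quantile normalization left 3 genes (0.016%), 1 higher (0.00532%) and 2 lower (0.0106%), so that 33.3% of calls were higher, against 17.9% in the full model. Median centring of the arrays gave 1159 genes, 7.85% of them higher. A fit on the 4 arrays alone called none, with 1868 genes at an unadjusted p under 0.05, so that calls in the full model rest on a spread estimated over all 15 groups. In a fit restricted to the 20 arrays numbered 1 to 20, which holds DKO replicate 1 but no narrow array, 1889 genes were called (10.1%), 740 higher (3.94%) and 1149 lower (6.12%). Its DKO minus WT differences are those of DKO replicate 1 alone, from the same arrays, and only the spread differs. That spread comes from WT and KO arrays, so calls in this fit are no separate support for the 732. Cyp1b1 was the only gene called in the full model, with DKO replicate 1 alone and after quantile normalization.

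**Figure D3:**
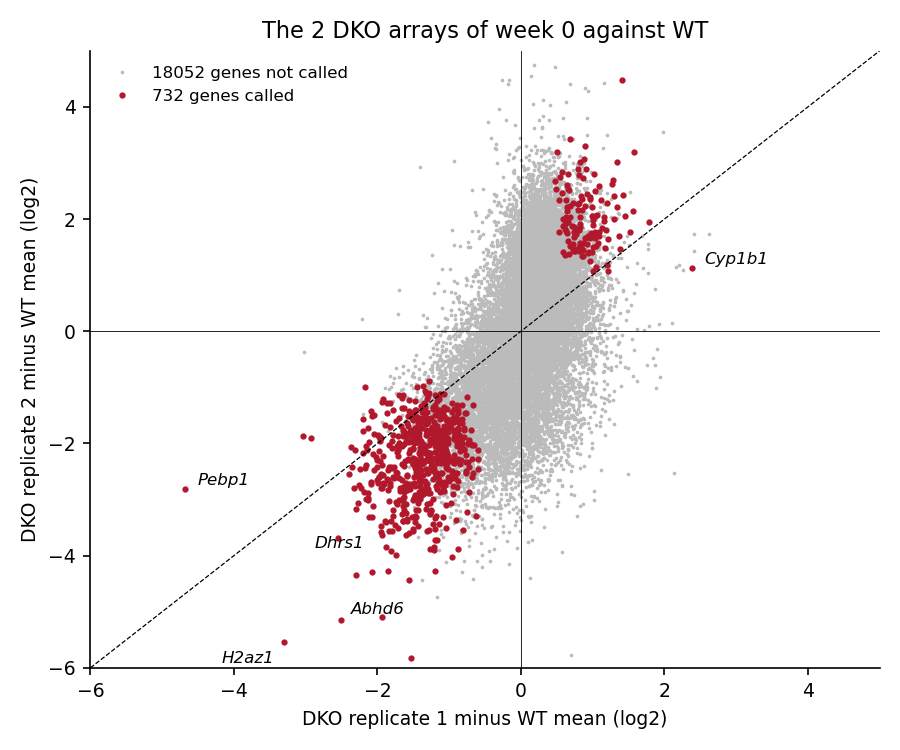
Difference from the WT week 0 mean (log2) on DKO replicate 1 (x axis) and DKO replicate 2 (y axis), 1 point a gene, with 732 called genes in red and a dashed line of equality. Most called genes lie further from 0 on replicate 2, whereas Pebp1 and Cyp1b1 lie further out on replicate 1.

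Pebp1, which encodes a phosphatidylethanolamine-binding inhibitor of Raf kinase signalling, was among the genes that fell most. Its signal was 4.50 and 6.36 in DKO, 7.35 and 7.59 in Cyp1a1 KO and 8.86 and 9.50 in WT. Neither DKO array overlapped the others, and the lower value came from DKO replicate 1, the array with an ordinary range. The difference was -3.75 ± 0.55, a 13.5-fold lower signal (limma adjusted p = 0.00319). It was -4.68 with DKO replicate 1 alone (limma adjusted p = 0.00114). After quantile normalization it was -2.92 and not called (limma adjusted p = 0.142).

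H2az1, which encodes the histone variant H2A.Z, had the largest drop of the called genes. It read 6.99 and 4.76 in DKO, 11.08 and 9.77 in Cyp1a1 KO and 10.13 and 10.47 in WT. The KO arrays surrounded the WT arrays, and both DKO arrays lay well below them. The difference was -4.42 ± 0.99 (limma adjusted p = 0.0186), with -3.31 for DKO replicate 1 alone (adjusted p = 0.446) and -4.40 after quantile normalization (adjusted p = 0.181). H2A.Z genes have close copies in the genome, and whether the probe set separates them was not tested.

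Abhd6, a monoacylglycerol lipase, and Dhrs1, a short-chain dehydrogenase, were the 2 genes besides Cyp1b1 that were called after quantile normalization. Abhd6 was at 8.29 and 5.65 in DKO, 8.93 and 9.85 in Cyp1a1 KO and 10.60 and 10.99 in WT. Its difference was -3.83 ± 0.67 (limma adjusted p = 0.00742), and -3.69 after quantile normalization (adjusted p = 0.0292). Dhrs1 was at 7.74 and 6.12 in DKO, 7.86 and 8.42 in KO and 9.46 and 9.93 in WT. Its difference was -2.76 ± 0.46 (limma adjusted p = 0.00657), and -2.21 after quantile normalization (adjusted p = 0.0292). With DKO replicate 1 alone these 2 genes differed by -2.51 and -1.95 and were not called (adjusted p = 0.244 and 0.184). In both genes the DKO arrays lay below all KO and WT arrays.

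Besides Pebp1 and Cyp1b1, the fit with DKO replicate 1 alone called Ergic3, Atp5d and the predicted gene Gm10651. Ergic3, a cargo protein between endoplasmic reticulum and Golgi, was at 7.87 and 8.01 in DKO, 8.83 and 8.67 in Cyp1a1 KO and 9.77 and 10.21 in WT. Atp5d, the delta subunit of mitochondrial ATP synthase, was at 7.82 and 7.18 in DKO, 8.32 and 8.11 in KO and 9.56 and 9.92 in WT. For these 2 genes the 3 genotypes did not overlap, with DKO lowest and WT highest. Ergic3 differed by -2.05 ± 0.31 in the full model and -2.11 with DKO replicate 1 alone (limma adjusted p = 0.00319 and 0.0493). Atp5d differed by -2.24 ± 0.29 and -1.92 (limma adjusted p = 0.00265 and 0.0493). Neither was called after quantile normalization (-1.31 and -1.44, adjusted p = 0.224 and 0.11). Gm10651 was not called in the full model (-1.70, adjusted p = 0.0715).

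Other genes named by rank were lower mostly on DKO replicate 2. Psmb6 and Psmb3, which encode beta subunits of the proteasome, differed by -3.68 ± 0.80 and -3.18 ± 0.72 (limma adjusted p = 0.0148 and 0.0205). Psmb6 read 9.01 on DKO replicate 1 and 4.71 on DKO replicate 2, against 10.19 and 10.90 in WT. Anxa2, the calcium-dependent membrane protein annexin A2, was at 7.80 and 5.76 in DKO, against 9.99 and 10.21 in WT. Pex11a, a peroxisome division factor, was at 7.29 and 4.14 in DKO, against 8.99 and 9.46 in WT. Vps28, an ESCRT sorting subunit, Park7, the redox-sensitive protein DJ-1, and Hsd17b10, a mitochondrial dehydrogenase of steroids and fatty acids, fell by 3.12, 3.06 and 2.86. The translation initiation subunit Eif3d and the mitochondrial oxoglutarate carrier Slc25a11 fell by 2.86 and 2.79. All of these genes lay below both WT arrays on both DKO arrays. On DKO replicate 1 alone their differences from WT were between -1.53 for Psmb6 and -2.55 for Vps28. None was called with DKO replicate 1 alone or after quantile normalization.

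Among the genes that were higher, none but Cyp1b1 was called in either check. Snord32a, a small nucleolar RNA, was at 9.17 and 10.79 in DKO, 8.76 and 8.58 in Cyp1a1 KO and 8.24 and 6.95 in WT (2.39 ± 0.58, limma adjusted p = 0.0266). The 2 WT arrays differed from each other by more than DKO replicate 1 differed from WT replicate 1. Olfr487, an olfactory receptor gene with close relatives, was at 5.43 and 7.11 in DKO, against 4.28 and 3.90 in WT (2.18 ± 0.52, limma adjusted p = 0.0232). Sh3bgr, a small SH3-binding protein, was at 5.72 and 6.30 in DKO, 5.12 and 4.78 in KO and 4.42 and 3.89 in WT (1.85 ± 0.39, limma adjusted p = 0.0141). Lingo4, a membrane protein with leucine-rich repeats, was at 6.46 and 7.17 in DKO, 6.32 and 6.00 in KO and 5.21 and 5.10 in WT (1.65 ± 0.37, limma adjusted p = 0.0187). On DKO replicate 1 alone, Snord32a, Olfr487, Sh3bgr and Lingo4 differed from WT by 1.58, 1.34, 1.56 and 1.30.

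Gene lists from textbook knowledge were described by their counts and medians, set beside all genes, for which the median difference was 0.14 on DKO replicate 1, 0.19 on DKO replicate 2 and 0.14 in Cyp1a1 KO. Among the members of all 40 lists, Cyp1b1 was the only gene called in both checks and Atp5d the only other one called in either, with DKO replicate 1 alone. Every other call given below for a list member holds in the full model only of these 3 fits. The 2 highest of the 5 signal classes of all genes, beside which lists of high signal are set, had medians of -0.18 and -0.23 on DKO replicate 1 and -0.78 and -1.55 on DKO replicate 2. Of 13 AhR targets measured, Cyp1b1 rose, none fell and 12 were not called. Their median was 0.21, and -0.17 after quantile normalization. Nqo1, an AhR- and NRF2-driven quinone reductase, was at 4.89 and 5.09 in DKO, against 5.18 and 6.04 in WT. Aldh3a1, an aldehyde dehydrogenase induced by AhR ligands, was at 5.59 and 5.58 in DKO, 5.84 and 5.70 in KO and 6.50 and 7.05 in WT. Slc7a5, an amino acid transporter, was at 6.21 and 6.80 in DKO, 6.00 and 6.45 in KO and 7.55 and 7.57 in WT. Both genes lay below WT in all 4 knockout arrays. Their differences of -1.18 ± 0.43 and -1.05 ± 0.38 did not pass in the full model (limma adjusted p = 0.0883 and 0.09). On DKO replicate 1 alone they were -1.18 and -1.35. None of 8 genes of the AhR complex was called. Ahr itself was at 7.23 and 6.16 in DKO, against 6.72 and 6.10 in WT.

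Other genes of xenobiotic metabolism had few calls. Of 32 other P450s and their partners 1 fell and 31 were not called, a share like the 3.2% of all genes that were lower. It was Cyb5r3, the cytochrome b5 reductase, at 7.53 and 7.27 in DKO, 7.47 and 7.90 in Cyp1a1 KO and 9.43 and 9.98 in WT (-2.30 ± 0.34, limma adjusted p = 0.00319). The DKO and KO arrays overlapped and all 4 lay below WT. The difference was -2.17 with DKO replicate 1 alone (adjusted p = 0.0751) and -1.46 after quantile normalization (adjusted p = 0.162). A list of 32 genes held conjugating enzymes, which make reactive compounds soluble, and an epoxide hydrolase. Of these genes 4 fell, none rose and 28 were not called, beside 3.2% of all genes lower. Their median was -0.19, with -0.22 on DKO replicate 1 and -0.18 after quantile normalization. Gstp1, a glutathione transferase, was at 6.75 and 7.92 in DKO, 7.50 and 8.40 in KO and 9.45 and 10.14 in WT (-2.46 ± 0.61, limma adjusted p = 0.0281). Mgst3, a microsomal relative, was at 5.45 and 5.47 in DKO, 7.07 and 6.37 in KO and 6.94 and 7.91 in WT (-1.96 ± 0.39, limma adjusted p = 0.0125). Here the KO arrays overlapped WT and the DKO arrays lay below both. Ephx1, the epoxide hydrolase that opens BaP epoxides, fell by 2.29 (limma adjusted p = 0.035) and Gstt3 by 1.20 (adjusted p = 0.0366). None of these 4 was called in either check, with adjusted p of 0.171 and 0.398 for Gstp1 and 0.184 and 0.201 for Mgst3 with DKO replicate 1 alone and after quantile normalization.

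NRF2-driven antioxidant genes had 4 of 18 lower, beside 3.2% of all genes, none higher and 14 not called (median -1.08; -0.71 on DKO replicate 1, -1.62 on DKO replicate 2 and -0.82 after quantile normalization). Both DKO arrays lay below both WT arrays for 13 of the 18, against 22% of all genes. Median signal of this list in WT was high, at 7.98 and 8.20, whereas these shares cover genes of all signal levels. The 2 highest signal classes had medians of -0.18 and -0.23 on DKO replicate 1 and -0.78 and -1.55 on DKO replicate 2. Shares among genes of like signal were not counted. Taldo1 and Tkt, enzymes of the pentose phosphate pathway, fell by 2.07 and 1.93. Hmox1, the haem-degrading oxygenase, was at 7.33 and 5.73 in DKO, 7.25 and 7.66 in Cyp1a1 KO and 8.30 and 8.38 in WT (-1.81 ± 0.47, limma adjusted p = 0.0366). Srxn1, a sulfiredoxin, fell by 1.34 (adjusted p = 0.0326). None of the 18 was called in either check. The transcript of NRF2 itself, Nfe2l2, was at 8.87 and 8.14 in DKO, 8.39 and 9.23 in KO and 9.62 and 9.75 in WT, a difference of -1.18 ± 0.51 that did not pass (limma adjusted p = 0.129).

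Cholesterol synthesis and de novo fatty acid synthesis, pathways that feed sebum, had the lowest medians of the 40 lists in the full model. After quantile normalization cholesterol synthesis was at -0.84, hypoxia and glycolysis at -0.84, NRF2 targets at -0.82, wax ester and triglyceride synthesis at -0.53 and de novo fatty acid synthesis at -0.51. Of 18 cholesterol synthesis genes 5 fell, none rose and 13 were not called, beside 3.2% of all genes lower. Their median was -1.54 (-1.04 on DKO replicate 1, -1.85 on DKO replicate 2 and -0.82 in Cyp1a1 KO). Their median signal in WT was high, at 8.87 and 9.31, where all genes of the highest signal class had medians of -0.23 on DKO replicate 1 and -1.55 on DKO replicate 2. For 16 of the 18, both DKO arrays lay below both WT arrays, against 22% of all genes of any signal level. Fdps, farnesyl diphosphate synthase, was at 8.48 and 8.57 in DKO, 9.05 and 9.42 in KO and 10.21 and 10.68 in WT (-1.92 ± 0.48, limma adjusted p = 0.0305). Lss, lanosterol synthase, was at 7.16 and 6.38 in DKO, 7.11 and 8.10 in KO and 8.99 and 9.18 in WT (-2.31 ± 0.49, limma adjusted p = 0.0141). Pmvk and Mvd, kinase and decarboxylase of the mevalonate pathway, fell by 2.02 and 1.74, and Sc5d, a sterol desaturase, fell by 1.40. None of the 18 was called with DKO replicate 1 alone or after quantile normalization, where Fdps differed by -1.97 and -1.34 (adjusted p = 0.344 and 0.385). DKO minus Cyp1a1 KO had a list median of -0.70 in the full model and -0.21 on arrays 1 to 20. None of the 18 was called between DKO and Cyp1a1 KO in the full model.

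De novo fatty acid synthesis had 3 of 14 lower, beside 3.2% of all genes, and none higher (median -1.10; -0.89 on DKO replicate 1, -1.67 on DKO replicate 2 and -0.51 after quantile normalization). In Cyp1a1 KO the list median was -0.58. Median signal of this list in WT was 8.28 and 7.66, whereas the 3.2% covers genes of all signal levels. None of the 14 was called in either check. The 3 genes feed acetyl-CoA into lipid. Acly, ATP citrate lyase, was at 7.72 and 7.47 in DKO, 6.93 and 8.44 in Cyp1a1 KO and 8.97 and 9.22 in WT (-1.50 ± 0.40, limma adjusted p = 0.0378). Acss2, an acetyl-CoA synthetase, was at 6.46 and 5.70 in DKO, 6.21 and 7.68 in KO and 8.52 and 8.64 in WT (-2.50 ± 0.47, limma adjusted p = 0.00929). Slc25a1, the mitochondrial citrate carrier, was at 7.44 and 7.19 in DKO, 7.63 and 7.82 in KO and 8.79 and 9.05 in WT (-1.61 ± 0.30, limma adjusted p = 0.00903). The KO arrays also lay below WT in all 3, with a wide gap between them for Acly and Acss2.

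Of 24 genes of wax ester and triglyceride synthesis 3 fell, beside 3.2% of all genes, none rose and 21 were not called. Their median was -0.93, with -0.79 on DKO replicate 1, -0.86 on DKO replicate 2 and -0.53 after quantile normalization. In Cyp1a1 KO the list median was -0.45. DKO minus Cyp1a1 KO had a list median of -0.25 in the full model, with none of the 24 called. Median signal of this list in WT was 7.79 and 7.82, whereas the 3.2% covers genes of all signal levels. Dgat1 and Dgat2, which attach the last fatty acid of a triglyceride, fell by 2.14 and 2.16 (limma adjusted p = 0.0187 and 0.0142), with adjusted p of 0.529 and 0.482 with DKO replicate 1 alone and 0.249 and 0.166 after quantile normalization. Elovl3, a fatty acid elongase of sebaceous glands, was at 5.60 and 4.80 in DKO, 5.45 and 5.74 in Cyp1a1 KO and 6.89 and 8.02 in WT (-2.26 ± 0.50, limma adjusted p = 0.0179). Awat2, given above, differed by -1.07 ± 0.79 and did not pass (limma adjusted p = 0.332). Of 23 sebocyte regulators and lipid droplet genes 2 fell, beside 3.2% of all genes lower. They were the melanocortin receptor Mc5r and the lipase inhibitor Angptl4. This list too had high median signal in WT, at 8.04 and 8.47. Mc5r, through which melanocortins stimulate sebum, was at 7.67 and 6.68 in DKO, 7.98 and 8.35 in KO and 9.12 and 9.41 in WT (-2.09 ± 0.45, limma adjusted p = 0.0148). Plin2, a lipid droplet coat protein, was at 10.59 and 10.05 in DKO, against 11.54 and 11.70 in WT, and did not pass (-1.30 ± 0.57, adjusted p = 0.132). Of 30 retinoid genes 4 fell and none rose, beside 3.2% of all genes lower. Their median was -0.44, with -0.12 on DKO replicate 1, -0.62 on DKO replicate 2 and -0.19 after quantile normalization. Among those that fell were the binding proteins Crabp1 and Crabp2 (-2.43 and -2.28) and the retinol dehydrogenase Rdh11 (-2.13). The fourth, Dgat1, is shared with the triglyceride list.

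Lists of lipid oxidation and respiration also had members that fell and none that rose. Of 22 genes of peroxisomal and mitochondrial fatty acid oxidation 6 fell, beside 3.2% of all genes, none rose and 16 were not called (median -0.87; -0.60 on DKO replicate 1, -1.36 on DKO replicate 2 and -0.50 after quantile normalization). In Cyp1a1 KO the list had a median of -0.41. Median signal of this list in WT was 8.26 and 8.39. Its medians were lower than those of both high signal classes on DKO replicate 1 and between them on DKO replicate 2. Ppara, the fatty acid receptor that drives these genes, was at 6.40 and 5.19 in DKO, 6.22 and 6.84 in Cyp1a1 KO and 7.28 and 7.16 in WT (-1.43 ± 0.34, limma adjusted p = 0.0226). Acaa2, Acadvl, Cpt1a, Cpt2 and Pex11a were the other five, with differences of -2.33, -1.98, -1.90, -1.89 and -3.51. Of 32 genes of oxidative phosphorylation 3 fell and none rose, beside 3.2% of all genes lower (median -0.73; -0.29 on DKO replicate 1, -1.28 on DKO replicate 2 and -0.31 after quantile normalization). With a median WT signal of 9.26 and 9.65, these medians were close to those of all genes in the highest signal class. They were Atp5d, the complex I subunit Ndufv1 (-1.71) and the cytochrome oxidase subunit Cox4i1 (-2.01). None of 20 cytosolic ribosomal protein genes was called (median -0.04, and 0.21 after quantile normalization).

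**Figure D4:**
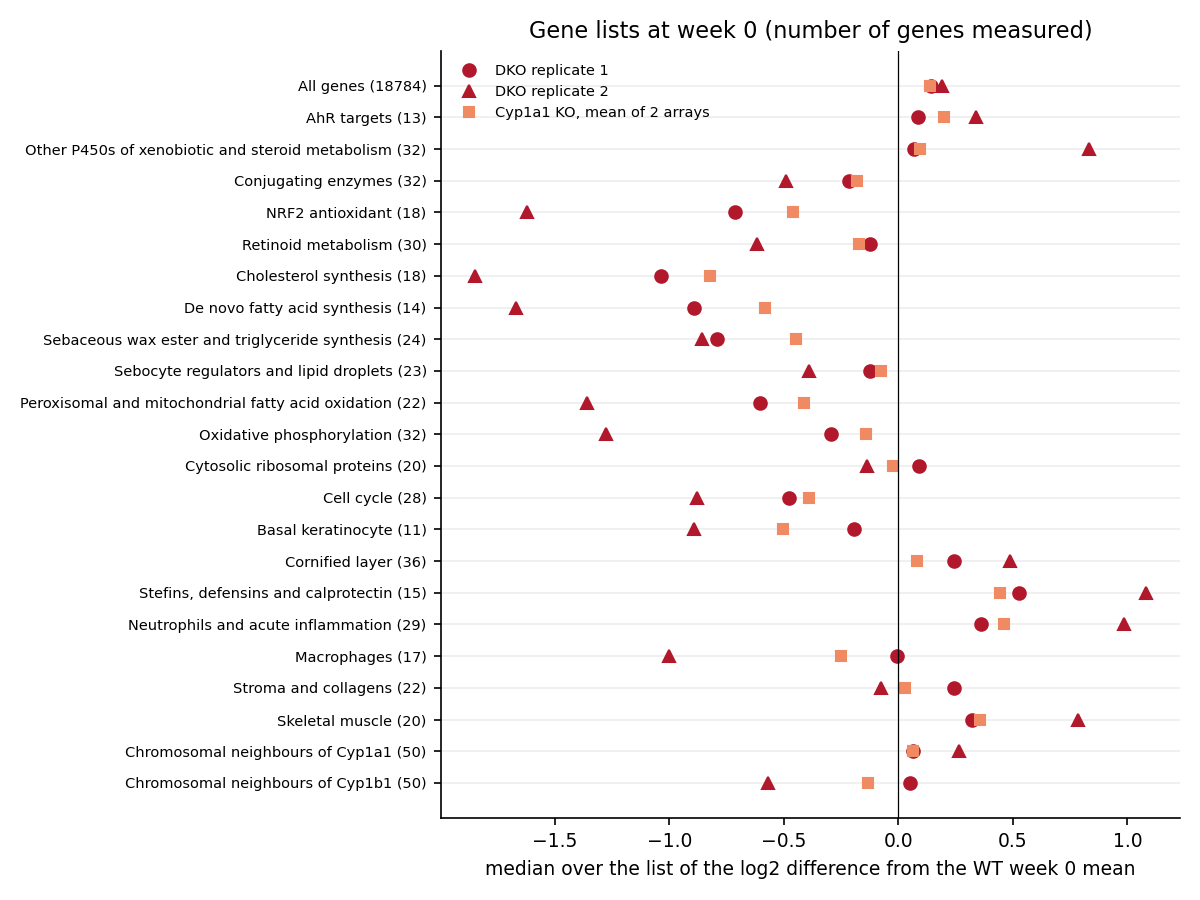
Median difference from the WT week 0 mean (x axis, log2) over the measured genes of the lists shown and of all genes (down the page, number of genes in brackets) on DKO replicate 1, on DKO replicate 2 and in the mean of the Cyp1a1 KO arrays. Cholesterol synthesis lies lowest, at -1.04, -1.85 and -0.82, and all genes lie at 0.14, 0.19 and 0.14.

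Keratinocyte genes were mixed, and the counts of lower genes stand beside 3.2% of all genes. Krt14, the keratin of basal keratinocytes and of the outer sebaceous layer, was at 9.14 and 8.68 in DKO, 8.93 and 9.70 in Cyp1a1 KO and 10.39 and 10.30 in WT (-1.44 ± 0.38, limma adjusted p = 0.0373). It was the only member called of 11 basal genes. Krt15 was at 9.21 and 7.68 in DKO, against 9.95 and 10.32 in WT, and did not pass (-1.69 ± 0.61, limma adjusted p = 0.0883). Of 18 suprabasal genes the desmosomal cadherin Dsg1b fell (-2.37, adjusted p = 0.0206). Of 36 cornified layer genes Klk7, a protease of desquamation, fell (-2.18 ± 0.44, limma adjusted p = 0.0125), none rose and 35 were not called (median 0.43). The list median was 0.24 on DKO replicate 1, 0.23 after quantile normalization and 0.08 in Cyp1a1 KO. Hrnr, a filaggrin-like cornified protein, was at 7.49 and 6.82 in DKO, 6.84 and 5.78 in KO and 6.02 and 4.14 in WT (2.07 ± 0.71, limma adjusted p = 0.0779). Flg2, its relative filaggrin 2, was at 8.25 and 7.28 in DKO, 5.86 and 7.35 in KO and 7.07 and 4.62 in WT. For both genes the 2 WT arrays lay further apart than the 2 DKO arrays.

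Immune and other cell type lists had few calls, which stand beside 0.697% of all genes higher and 3.2% lower. Csf3, the neutrophil growth factor G-CSF, was the only member called of 29 neutrophil and acute inflammation genes, at 5.16 and 6.18 in DKO, 4.92 and 4.45 in Cyp1a1 KO and 3.89 and 4.31 in WT (1.57 ± 0.36, limma adjusted p = 0.021). Oas2, an interferon-induced antiviral enzyme, was the only member called of 25 interferon genes, at 5.63 and 6.38 in DKO, 5.35 and 5.32 in KO and 4.85 and 4.35 in WT (1.40 ± 0.36, limma adjusted p = 0.0356). Neither was called in either check. Of 21 MHC class I genes H2-K1 fell (-1.28, adjusted p = 0.0422). Of 8 nerve genes Pmp22 fell (-2.35, adjusted p = 0.0125), against the direction of its list. The nerve list had a median of 0.91, with 7 of the 8 differences positive, and 0.45 after quantile normalization. None of 17 macrophage, 16 lymphocyte, 20 skeletal muscle, 12 endothelial, 11 fat cell and 22 stroma genes was called in the full model. Of 15 genes of stefins, defensins and calprotectin none was called, and 9 had both DKO arrays above both WT arrays, against 37.8% of all genes. Median signal of these 15 in WT was low, at 4.12 and 3.89, whereas the 37.8% covers genes of all signal levels. The lowest signal class had medians of 0.30 on DKO replicate 1 and 1.44 on DKO replicate 2. Shares among genes of like signal were not counted. Median signal of the lymphocyte list was 4.48 and 5.38 in DKO and 4.25 and 4.30 in WT, and that of the muscle list 4.77 and 5.32 in DKO and 4.47 and 4.35 in WT. DKO replicate 2 was the higher DKO array for both lists, as it was for the median of the lowest signal class. Their part in the results was not tested. Of 21 androgen and estrogen genes 2 fell, Hsd17b10 as given above and H2-Ke6, the steroid dehydrogenase also named Hsd17b8 (-1.73, adjusted p = 0.039). Of 16 genes of other male accessory glands and urethra the uroplakin Upk1a fell (-1.53, adjusted p = 0.0253), again against its list. That list had a median of 0.86, with 14 of the 16 differences positive, and 0.18 after quantile normalization. None of 19 preputial and scent gland genes, 4 stress keratin, 9 smooth muscle, 3 red cell, 11 MHC class II and 17 circadian clock genes was called.

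Stress and growth lists had 1 or 2 calls each, all lower, as were 601 of the 732 calls over all genes. These counts stand beside 3.2% of all genes lower, a share that covers genes of all signal levels. Ccnb2, a mitotic cyclin, fell by 1.73 (1 of 28 cell cycle genes). The list median was -0.74, with -0.48 on DKO replicate 1 and -0.46 after quantile normalization. Aldoa, a glycolytic aldolase, and Slc2a1, the glucose transporter GLUT1, fell by 1.77 and 1.80 (2 of 17 hypoxia and glycolysis genes). The median of that list was -0.79, with -0.61 on DKO replicate 1 and -0.84 after quantile normalization. Hspa8, the constitutive heat shock chaperone, was at 10.64 and 10.12 in DKO, 10.53 and 10.23 in Cyp1a1 KO and 11.94 and 11.84 in WT (-1.50 ± 0.38, limma adjusted p = 0.0322). The 2 knockouts overlapped for this gene and both lay below WT. Asns, asparagine synthetase, fell by 2.41 and was in the same list of 17 chaperone and unfolded protein response genes (median -0.56, and 0.11 after quantile normalization). Plk3 was called of 18 p53 targets (-1.69) and Atf3 of 24 immediate early genes (-1.79).

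The genes nearest to each targeted gene on its chromosome were counted apart. Of the 50 measured genes nearest to Cyp1a1 on chromosome 9, 3 fell and none rose (median 0.13, with 0.06 on DKO replicate 1 and 0.03 after quantile normalization). They were Mpi, a mannose phosphate isomerase (-2.61), Adpgk, a glucokinase (-1.14), and Imp3, a ribosome biogenesis factor (-1.54). Of the 50 nearest to Cyp1b1 on chromosome 17, 4 fell and none rose (median -0.39, with 0.05 on DKO replicate 1 and -0.27 after quantile normalization). They were Galm, a galactose mutarotase (-2.51), Ttc27 (-2.04), the zinc transporter Slc30a6 (-1.33) and the respiratory chain factor Cox7a2l (-1.54). The shares lower, 3 and 4 of 50, stand beside 3.2% of all genes. Neither list had a call after quantile normalization or with DKO replicate 1 alone.

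DKO and Cyp1a1 KO, which differ in Cyp1b1 by genotype, were also tested against each other. No gene was called by limma in the full model (0.0% of 18784), with 1601 genes at an unadjusted p under 0.05. Cyp1b1 exceeded Cyp1a1 KO by 1.44 (limma adjusted p = 0.565). After quantile normalization the difference was 1.81 ± 0.27 and Cyp1b1 was the single gene called (0.00532%; limma adjusted p = 0.0251). On arrays 1 to 20, where DKO is replicate 1 alone, 4 genes were called (0.0213%). Pebp1 differed by -2.97 ± 0.25 (limma adjusted p = 9.82e-05), Cyp1b1 by 2.06 ± 0.24 (adjusted p = 0.00272), H2az1 by -3.44 ± 0.48 (adjusted p = 0.0214) and Lilra6, a leukocyte receptor gene, by -1.34 ± 0.21 (adjusted p = 0.0491). Lilra6 read 3.62 and 4.81 in DKO, 4.95 and 4.98 in KO and 3.66 and 3.81 in WT, so that here the KO arrays and not the DKO replicate 1 stood apart from WT. With DKO replicate 2 alone 3565 genes (19%) were called between DKO and KO.

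Cyp1a1 KO against WT at week 0 shares the WT arrays with the comparison above, so its values are only set beside it. No gene was called by limma in the full model, with 1292 at an unadjusted p under 0.05, and 2926 (15.6%) were called on arrays 1 to 20. The KO minus WT difference was 0.31 for Cyp1b1, -1.71 for Pebp1, 0.13 for H2az1, -1.41 for Abhd6, -1.56 for Dhrs1 and -1.52 for Atp5d. The DKO minus WT differences of the same genes were 1.75, -3.75, -4.42, -3.83, -2.76 and -2.24. By mean, the KO arrays thus lay close to WT for Cyp1b1 and H2az1 and between DKO and WT for the other four.

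The later arrays give a second look at the genotype difference in mice that week 0 does not use, although these had eaten BaP and were older. Over weeks 4 to 16, 13429 genes (71.5%) were called between DKO and WT in 8 arrays each, and 7 of the 8 DKO arrays were narrow. Of the 732 genes of week 0, 730 had the same sign there (99.7%), against 88.2% of all genes. With DKO and the narrow arrays nearly the same set, genotype and array range cannot be told apart in this count. Cyp1b1 exceeded WT by 3.73 over weeks 4 to 16. It ranged between 9.48 and 10.57 in DKO, 7.71 and 8.82 in Cyp1a1 KO and 6.17 and 6.77 in WT, with no overlap between genotypes. In KO it was thus above its own week 0 values of 6.66 and 6.69 in all 8 later arrays, and in DKO above 8.74 and 7.48. Abhd6 (-3.76) and Dhrs1 (-3.08) had differences over weeks 4 to 16 close to those at week 0, and H2az1 differed by -4.02.

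Pebp1 behaved otherwise. Over weeks 4 to 16 it lay between 5.61 and 8.67 in DKO, 6.92 and 8.23 in Cyp1a1 KO and 7.91 and 8.95 in WT, a difference of -0.78 between DKO and WT (limma adjusted p = 0.0154). The 2 DKO arrays of ordinary range, week 0 replicate 1 and week 12 replicate 2, had the lowest Pebp1 signals of the series, 4.50 and 5.61. The next lowest was the narrow week 0 replicate 2, at 6.36.

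**Figure D5:**
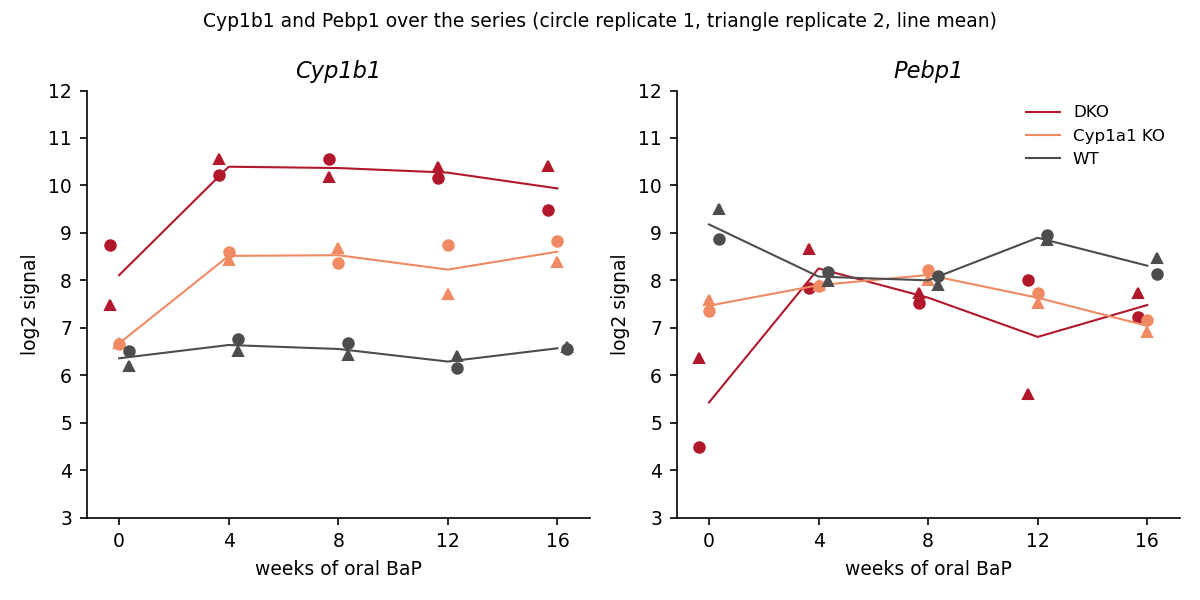
Log2 signal of Cyp1b1 and Pebp1 (y axes) by weeks of oral BaP (x axes), with single arrays as points and means of 2 as lines. Cyp1b1 in DKO lies above Cyp1a1 KO and WT from week 0 on, while Pebp1 in DKO is at 4.50 and 6.36 at week 0 and lies among the other genotypes at week 4.

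The difference between DKO and WT at week 0 was also tested against that over weeks 4 to 16. By this interaction 7 genes were called (0.0373%), all with a smaller DKO minus WT difference at week 0. They were the antimicrobial peptide gene Defb4, the cysteine protease inhibitors Stfa1, Stfa3 and Csta1, the keratins Krt1 and Krt10 of differentiating epidermis, and Rnase2b, an eosinophil-type ribonuclease. Defb4 was at 3.16 and 4.43 in DKO and 3.76 and 3.56 in WT at week 0, and its DKO minus WT difference was 0.13 at week 0 and 6.27 over weeks 4 to 16. Krt1 was at 4.47 and 5.37 in DKO and 3.73 and 3.67 in WT, with differences of 1.22 and 5.44. None of the 7 was called between DKO and WT at week 0. The interaction called 16 genes after quantile normalization (0.0852%) and 37 with the label number range as a block (0.197%). That block rests on DKO week 0 and Cyp1a1 KO week 12, the only groups with arrays of both number ranges.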

How the data were processed

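Preputial gland RNA was measured on 30 arrays, 15 groups of 2. Per the labels' protocols, frozen glands were thawed, and the RNA was amplified by an Ovation Pico WTA reaction and tagged with biotin. The authors deposited RMA values (background correction, quantile normalization, probe summary) on the log2 scale, per the submitters' processing notes, with no version given. The deposited columns nevertheless differ in spread. With 2 arrays a group, precision is limited by their number. No label says more of how the 2 samples of a group relate than that 2 mice were used, so p values measure the spread between these samples.

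Of 21212 probe sets, 18786 had 1 gene symbol, 6 several and 2420 none in the array annotation given here. A gene was read from its probe set of highest mean (18784 genes), with no filter on low values. A linear model of the 15 group means came from limma 3.58.1, run in R 4.3.3 (residual degrees of freedom 15, prior 6.91). Tests were two-sided, with Benjamini-Hochberg adjustment over all genes, and the fit was tested on simulated data. Each gene has a shared variance across groups there, whereas estimated array weights averaged 0.178 for DKO, 0.81 for Cyp1a1 KO and 1.44 for WT at week 0. Values after ± are standard errors. An exact permutation test of 2 arrays against 2 cannot give a two-sided p below 0.333 and was not used.

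Comparison, members and the 40 gene lists (726 of 819 genes measured) were chosen with earlier results of these data known. The genes to be named were the 3 P450 genes Cyp1a1, Cyp1a2 and Cyp1b1, the 15 highest and 15 lowest differences among well-expressed genes called in the full model, with DKO replicate 1 alone and after quantile normalization, and 4 members of each list by adjusted p. Since too few genes passed all 3, the 15 were filled by the largest called differences of the same sign in both checks. The text gives a selection of these, and some other genes, among them Gm10651, Lilra6, Ergic3 and the interaction genes, were named after their values were seen. Alternatives were quantile normalization, median centring, a low-value filter, trended robust variances, array weights, smaller fits, the mean of all probe sets, blocks for label number and replicate, and leaving out arrays. Quantile normalization of arrays 1 to 20 alone and a crossed replicate block were chosen after seeing the data. Promoter sequences came from RefSeq.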

Additional observations from a re-analysis of the deposited data

Results flagged for a closer look

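The DKO minus WT difference at week 0 differed from that over weeks 4 to 16 for 7 genes by limma's interaction term. The week 0 difference minus the later difference was -6.14 ± 0.67 for Defb4 (adjusted p = 6.41e-05), -6.49 ± 0.71 for Stfa1 (adjusted p = 6.41e-05), -4.22 ± 0.55 for Krt1 (adjusted p = 0.000825) and -2.81 ± 0.44 for Krt10 (adjusted p = 0.00821). It was -2.62 for Csta1 (adjusted p = 0.0115), -2.81 for Stfa3 (adjusted p = 0.0115) and -3.27 for Rnase2b (adjusted p = 0.0356). All 7 were also called after quantile normalization, with values between -7.17 for Stfa1 and -2.59 for Stfa3, and with the label number range as a block, with values between -7.37 for Stfa1 and -2.5 for Csta1. Only DKO week 0 and Cyp1a1 KO week 12 hold arrays of both number ranges. The block thus rests on these array pairs, 1 of which includes DKO replicate 2, and is a weak check. Defb4 had low signal at week 0, at 3.16 and 4.43 in DKO and 3.76 and 3.56 in WT, and so did Csta1, at 4.75 and 4.74 in DKO and 3.77 and 3.29 in WT. Stefin genes have close relatives, and whether their probe sets separate them was not tested. Of the 8 DKO arrays of weeks 4 to 16, 7 were narrow. Without narrow arrays only week 12 replicate 2 is left of these 8, so that setting cannot test the interaction with weeks 4 to 16.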

How the results depend on the processing

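Between DKO and WT at week 0 the count of 732 called genes was 3 with quantile normalization (33.3% of calls higher, against 17.9%), 1159 with median centring (7.85% higher), 2 with array weights, 0 with only the groups compared or only the 3 week 0 groups in the fit (1868 and 3157 genes at an unadjusted p under 0.05), 69 with the label number range as a block, 1889 with arrays 1 to 20 or without narrow arrays, 1236 with arrays 1 to 20 quantile-normalized alone, 1 with quantile normalization and without DKO replicate 2, and 0 to 7444 when single arrays were left out. The median difference of all genes was 0.19, and 0.02 after quantile normalization or median centring. The cause of these changes was not tested. Between DKO and Cyp1a1 KO the count of 0 became 1 with quantile normalization, 4 with arrays 1 to 20 or without narrow arrays, 6 with those arrays quantile-normalized alone, and 0 to 3565 without single arrays. Between Cyp1a1 KO and WT the count of 0 became 220 with array weights, 8 with the number block, 2926 with arrays 1 to 20 or without narrow arrays, and 963 with those arrays quantile-normalized alone. Over weeks 4 to 16 the 13429 genes became 6452 with quantile normalization, 6998 with it and without DKO week 0 replicate 2, 151 with the number block and 5850 without narrow arrays. The 7 interaction genes became 16 with quantile normalization, 4 with it and without DKO replicate 2, 2 with array weights, 4 with only the groups compared, 37 with the number block, 568 without narrow arrays, and 4 to 42 without single arrays.

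The labels do not pair the arrays, and deviations of same-numbered DKO and WT arrays correlated at -0.173 (0.00947 after quantile normalization). With the replicate number as a block, 604 genes were called between DKO and WT, 595 of them among the 732, and Cyp1b1 kept its call (1.75, adjusted p = 0.0205). With the DKO numbers crossed, the block gave 635 genes. Cyp1b1 fell short with array weights (1.75, adjusted p = 0.178), only the groups compared (1.75, 0.418), only the 3 week 0 groups (1.75, 0.296) and without WT replicates 1 or 2 (1.91, 0.0512 and 1.59, 0.311). Without single arrays it ranged between 1.12 and 2.38.

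Differences that changed sign were all of named genes that were not called. Cyp1a1 was -0.24 with quantile normalization, -0.070 with median centring, -0.41 with the number block, -0.58 with arrays 1 to 20 or without narrow arrays, -0.80 with quantile normalization and without DKO replicate 2, -0.91 with arrays 1 to 20 quantile-normalized alone, and -0.58 to 0.79 without single arrays. Cyp1a2 was -0.49 with quantile normalization, -0.14 with the number block, -0.20 with quantile normalization and without DKO replicate 2, and -0.21 with arrays 1 to 20 quantile-normalized alone. Lilra6 was -0.11 with quantile normalization, with arrays 1 to 20 or without narrow arrays, -0.39 with quantile normalization and without DKO replicate 2, -0.43 with arrays 1 to 20 quantile-normalized alone, and -0.11 to 1.07 without single arrays. Defb4 was -0.56 with quantile normalization or the number block, -0.038 with median centring, -0.50 with arrays 1 to 20 or without narrow arrays, -0.77 with quantile normalization and without DKO replicate 2, -0.85 with arrays 1 to 20 quantile-normalized alone, and -0.50 to 0.77 without single arrays. Stfa1 was 0.61 with the number block, 0.53 with arrays 1 to 20 or without narrow arrays, 0.34 with quantile normalization and without DKO replicate 2, 0.39 with arrays 1 to 20 quantile-normalized alone, and -1.06 to 0.53 without single arrays. Without single arrays, Krt10 ranged between -0.091 and 1.07 and Ahr between -0.25 and 0.82. Of the 103 named genes, 73 lost their call with quantile normalization, 72 without DKO replicate 2 and 5 on arrays 1 to 20, where 17 gained one.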
